A study of Mus musculus with 6 samples.

Results

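Expression of 10 target genes of the hypoxia-inducible factors (HIF) that act outside glycolysis was examined in mouse T cells that had shared a culture with cells of the ovarian cancer line ID8. The genes were Egln1, Egln3, Bnip3, Ndrg1, Vegfa, P4ha1, P4ha2, Car9, Ankrd37 and Adm. They were chosen by name, and each matched 1 of the 54532 gene rows of the expression table. Levels are in FPKM, fragments scaled to gene length and library depth. All 10 were among the 15874 genes that averaged 0.5 FPKM or more over the libraries and were tested. ID8 is a mouse ovarian surface epithelial cancer cell line. In the cisplatin group, 3 libraries were made from T cells co-cultured with ID8 cells that had been pretreated with 40 μM cisplatin, a platinum drug that crosslinks DNA. In the control group, 3 libraries were made from T cells co-cultured with ID8 cells pretreated with PBS, the buffer. In both groups the T cells came from spleens of C57BL/6 mice of 6 to 8 weeks, were isolated with a pan T-cell kit, kept in IL-2 and pre-activated with beads against CD3 and CD28. The methods speak of biological replicates, but neither they nor the labels say whether the libraries of a group came from separate mice or from separate cultures. The limma p-values set the difference between the groups against the spread between these libraries, part of which may be technical.

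HIF is a transcription factor made of an oxygen-sensitive alpha subunit and the stable partner Arnt. When oxygen is available, the Egln prolyl hydroxylases mark the alpha subunit, and the Vhl ubiquitin ligase then has it degraded. When oxygen is low, or after T-cell receptor stimulation, the alpha subunit accumulates, and HIF binds short DNA elements with the core letters ACGTG or GCGTG. The targets outside glycolysis include the Egln hydroxylases themselves, the mitophagy receptor Bnip3, secreted peptides that act on blood vessels (Vegfa and Adm), enzymes that mature collagen (P4ha1 and P4ha2) and the acid-handling enzyme Car9.

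The bases before the start sites of Egln3, P4ha1, P4ha2 and Vegfa are shown as examples from the contrasts between related genes described here. The windows of Bnip3 and Egln1, which also take part in such contrasts, are not shown. RefSeq promoter windows (GRCm38.p6) were matched by symbol for 9 of the 10 genes, and Ndrg1 had no entry. Each sequence is the 250 bases before a start site, read 5′ to 3′ on the strand of the gene, and capitals mark ACGTG or GCGTG on either strand (CACGT and CACGC on the other). Egln3 lies on the minus strand at chr12:54203875-54204124, P4ha1 on the plus strand at chr10:59323046-59323295, P4ha2 on the plus strand at chr11:54100674-54100923 and the upstream Vegfa window on the minus strand at chr17:46032378-46032627. None of these windows overlaps an exon of GENCODE M21. The P4ha2 window nevertheless lies inside the annotated gene, which begins at position 54100095.
Egln3: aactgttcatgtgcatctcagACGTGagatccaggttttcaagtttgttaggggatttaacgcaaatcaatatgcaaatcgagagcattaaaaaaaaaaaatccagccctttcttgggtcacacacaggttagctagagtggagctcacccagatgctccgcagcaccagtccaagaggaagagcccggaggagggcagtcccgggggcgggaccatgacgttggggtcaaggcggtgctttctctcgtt
P4ha1: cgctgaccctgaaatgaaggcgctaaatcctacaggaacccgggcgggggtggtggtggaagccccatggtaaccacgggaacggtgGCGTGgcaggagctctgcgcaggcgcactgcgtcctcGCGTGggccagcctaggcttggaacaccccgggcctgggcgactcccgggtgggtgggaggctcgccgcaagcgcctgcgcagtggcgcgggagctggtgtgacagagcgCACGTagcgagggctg
P4ha2: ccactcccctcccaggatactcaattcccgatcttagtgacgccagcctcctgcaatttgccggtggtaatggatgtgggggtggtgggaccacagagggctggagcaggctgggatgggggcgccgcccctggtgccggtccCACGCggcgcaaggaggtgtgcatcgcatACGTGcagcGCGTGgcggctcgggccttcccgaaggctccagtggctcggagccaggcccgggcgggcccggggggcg
Vegfa: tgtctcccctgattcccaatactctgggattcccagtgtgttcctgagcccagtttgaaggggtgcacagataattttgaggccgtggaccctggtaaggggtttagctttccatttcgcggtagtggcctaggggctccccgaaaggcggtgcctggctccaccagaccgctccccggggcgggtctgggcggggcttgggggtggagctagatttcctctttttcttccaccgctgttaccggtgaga

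The core letters were present in 9 of the 10 windows of the 9 genes with an entry. The upstream Vegfa window held no match. A second Vegfa window (chr17:46025164-46025413, minus strand) held 2, but it lies inside the gene and overlaps a Vegfa exon. Vegfa thus had matches only in that inner window. The windows of Ankrd37, Bnip3, Car9 and Egln1 also overlapped an exon of their own gene. Bnip3 held 5 matches, of which 2 are the same letters CACGTG read on both strands. Ankrd37 held 4, of which 2 overlap, P4ha1 and P4ha2 held 3 each, Adm and Egln1 held 2 each, and Car9 and Egln3 held 1 each. Over all 32851 windows of the same length, 16.6% held ACGTG, 28.2% held GCGTG and 38.6% held either. These matches describe letters and not bound sites.

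Rebuilt reads on genes ranged from 30606569 to 32169496 per library, and the depth of the groups overlapped. The depth implied by the FPKM was 1.03 to 1.05 times these reads in the cisplatin and 0.976 to 0.982 times in the control libraries. Log2 fold changes from the FPKM were therefore slightly lower than from the reads, for example -1.89 against -1.81 for Egln1. The libraries labelled as T cells held transcripts of other cells. The 24 T-cell identity genes summed to 2037 to 2166 FPKM in the control and 3224 to 3298 FPKM in the cisplatin libraries, and 30 genes typical of ID8 cells summed to 1934 to 2032 FPKM in the control and 304.2 to 314.7 FPKM in the cisplatin libraries. Of the 26 ID8 genes tested, 24 were called lower, where 12.8% of all tested genes were. Their median log2 fold change was -2.32, against 0.60 for the T-cell genes and 0.03 for all tested genes. None of the 30 ID8 genes was at 0 in every library, but Krt7, Igfbp5, Tpm2 and Myl9 stayed under the minimum for testing. Markers of B cells (10 of 10 higher at an adjusted p under 0.05, limma) and of myeloid cells (9 of 11 tested higher and 1 lower) were present as well. At that threshold alone 27.5% of all tested genes were higher and 29.0% lower. With a minimum fold of 2 as well, 1 B-cell gene and 6 myeloid genes were higher. Fewer ID8 cells in the collected material and less RNA per ID8 cell cannot be told apart in these bulk libraries.

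Of the 10 HIF target genes, 9 were called lower and 0 higher with cisplatin-pretreated ID8 cells. A gene was called at an adjusted p-value under 0.05 (limma on log2(FPKM + 0.1), Benjamini-Hochberg over all tested genes) and a fold change of at least 2. By the same rule 12.8% of all tested genes were called lower and 4.11% higher. In 9 of the 10 genes the 3 cisplatin libraries lay below the 3 control libraries, which held for 32.3% of all tested genes. The summed FPKM of the 10 genes was 570.6 to 579.5 in the control libraries and 73.5 to 79.2 in the cisplatin libraries. The median log2 fold change of the 10 genes was -2.76, and single genes ranged from -4.40 to -0.59. The ID8 transcripts fell in the same libraries, and their part in this fall was not tested.

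**Figure D1:**
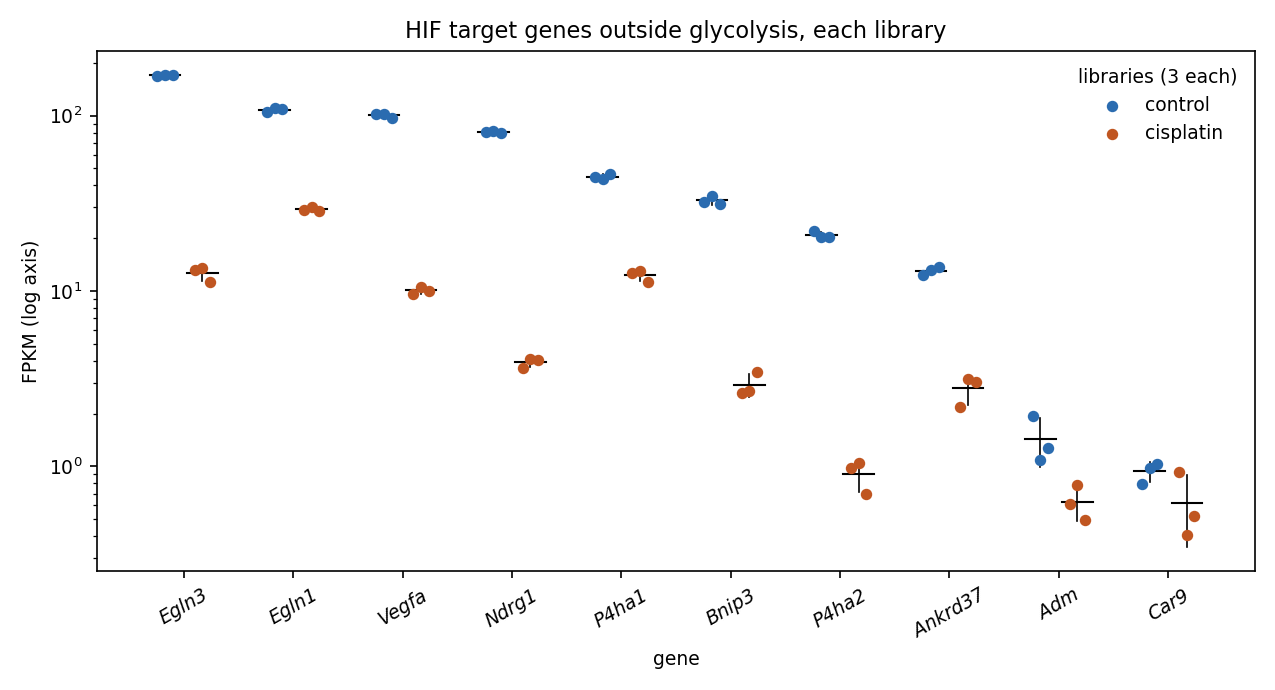
FPKM of the 10 HIF target genes (log axis) in each of the 3 control (blue) and 3 cisplatin (orange) libraries, in the order of the control level, with the mean (horizontal line) and SD (vertical line). The groups are apart for 9 genes and overlap for Car9, where the cisplatin libraries span 0.406 to 0.925 FPKM and the control libraries 0.795 to 1.03 FPKM.

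The oxygen sensors Egln3 and Egln1 were the most abundant of the 10 genes in the control libraries. Egln3 (ENSMUSG00000035105, chromosome 12 from 54178981 to 54203860 of GRCm38), a prolyl hydroxylase whose own gene is induced by HIF, had 168.3, 171.1 and 171.5 FPKM in the control libraries. In the cisplatin libraries it had 13.2, 13.5 and 11.3 FPKM. The groups were thus far apart, and the log2 fold change was -3.75 (SE 0.07 on that scale, adjusted p = 1.19e-07, limma). Egln1 (ENSMUSG00000031987, chromosome 8 from 124908587 to 124949324), the main oxygen sensor of most cells, had 105.6, 110.6 and 108.6 FPKM in control. It had 28.9, 30.05 and 28.7 FPKM with cisplatin, a log2 fold change of -1.89 (SE 0.03 on that scale, adjusted p = 1.13e-07, limma). Both fell, and Egln3 fell by more than Egln1. The third hydroxylase, Egln2, which is not a classical HIF target, averaged 26.5 ± 0.441 FPKM (SD, n = 3) in control and 28.3 ± 1.03 FPKM (SD, n = 3) with cisplatin, and it did not pass the test (adjusted p = 0.0733, limma).

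Within each library the order of the 3 hydroxylases differed between the groups. The ratio of Egln3 to Egln1 was 1.60, 1.55 and 1.58 in the control libraries and 0.456, 0.448 and 0.394 in the cisplatin libraries. Egln3 was therefore the higher of the pair in every control library and the lower in every cisplatin library. The ratio of Egln2 to Egln1 was 0.236 to 0.255 in control and 0.954 to 0.979 with cisplatin, so these transcripts were nearly level in the cisplatin libraries. Such ratios do not depend on the scaling between libraries. For each of the 6 gene pairs compared in this way, which were chosen after their values were seen, the groups did not overlap, and the two-sided exact permutation test gave p = 0.1, below which 3 against 3 libraries cannot go (also 0.1 after Benjamini-Hochberg adjustment over the 6 pairs).

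Bnip3 (ENSMUSG00000078566, chromosome 7 from 138890836 to 138909519) encodes a protein of the outer mitochondrial membrane that recruits the autophagy machinery. It had 32.1, 35.03 and 31.4 FPKM in the control libraries and 2.63, 2.69 and 3.43 FPKM in the cisplatin libraries. Every cisplatin library was below every control library, with a log2 fold change of -3.46 (SE 0.11 on that scale, adjusted p = 7.94e-07, limma). Its relative Bnip3l, a second HIF-induced mitophagy receptor, fell less, from 77.4 to 31.4 FPKM (log2 fold change -1.297). The ratio of Bnip3 to Bnip3l was 0.400 to 0.445 in control and 0.0809 to 0.112 with cisplatin. Of the 8 mitophagy genes tested, 3 were called lower (Bnip3 itself, Bnip3l and Optn) and 0 higher, where 12.8% and 4.11% of all tested genes were. The kinase Pink1 had 28.2 FPKM in control and 29.8 FPKM with cisplatin and did not pass the test (adjusted p = 0.0942, limma).

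Ndrg1 (ENSMUSG00000005125, chromosome 15 from 66929318 to 66969640), a stress-induced gene widely used as a marker of hypoxia, had 81.0, 81.4 and 79.6 FPKM in the control libraries. It had 3.65, 4.11 and 4.06 FPKM in the cisplatin libraries. This change of -4.32 on the log2 scale (standard error 0.05, adjusted p = 5.94e-08, limma) stood 31st among the 15874 tested genes, counted from the largest fall. Ndrg3 rose from 8.25 to 10.2 FPKM (log2 fold change 0.31, adjusted p = 0.00232, limma), Ndrg2 fell by 0.43 on the log2 scale, and Ndrg4 (log2 fold change -0.43, adjusted p = 0.139) did not pass the test, so that none of the 3 was called. The ratio of Ndrg1 to Ndrg3 was 9.70 to 9.84 in control and 0.377 to 0.401 with cisplatin, the largest shift of the 6 pairs, at -4.67 on the log2 scale.

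Vegfa (ENSMUSG00000023951, chromosome 17 from 46016993 to 46032369), the main growth factor for blood vessels, had 102.3, 102.4 and 96.9 FPKM in the control libraries and 9.68, 10.6 and 9.99 FPKM in the cisplatin libraries. Its log2 fold change was -3.31 (95% confidence interval -3.41 to -3.20, adjusted p = 6.27e-08, limma). The related ligand Vegfb, which HIF does not classically induce, fell less, from 25.5 to 16.8 FPKM (log2 fold change -0.60). Vegfa was 3.80 to 4.11 times as abundant as Vegfb in each control library and 0.591 to 0.614 times in each cisplatin library, so the order of these ligands turned. Of the 7 tested ligands and receptors of the VEGF family, Vegfa included, 6 were called lower and 0 higher. By the same rule 12.8% of all tested genes were called lower and 4.11% higher. Among the receptors, Flt1, itself a HIF target, fell from 7.08 to 1.72 FPKM and Flt4 from 10.6 to 2.42 FPKM. Kdr, the main signalling receptor of endothelial cells, averaged 0.160 FPKM in control and 0.263 FPKM with cisplatin and was below the minimum for testing.

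Adm (ENSMUSG00000030790, chromosome 7 from 110627661 to 110629820), which encodes the vasodilator peptide adrenomedullin, was low throughout. It had 1.93, 1.09 and 1.27 FPKM in the control libraries (53 to 94 rebuilt reads) and 0.611, 0.783 and 0.495 FPKM in the cisplatin libraries (26 to 42 reads). The groups did not overlap, but control replicate 1 stood above the other two. The log2 fold change was -1.05 (SE 0.27 on that scale, adjusted p = 0.0154, limma). Without control replicate 1 it was -0.83 with an adjusted p of 0.0503 (limma), and without cisplatin replicate 3 it was -0.91, under the minimum fold, so the call of Adm rested on single libraries. Its receptor subunits went both ways. Ramp1 and Ramp2 were called lower (log2 fold changes -1.89 and -1.48), and the receptor Calcrl and the subunit Ramp3 were higher (0.41 and 0.74) without reaching the minimum fold. The antisense transcript Gm28863 overlaps Adm and reached at most 0.386 FPKM in any library.

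P4ha1 and P4ha2 encode alternative catalytic subunits of collagen prolyl 4-hydroxylase, which stabilises the collagen triple helix. P4ha2 (ENSMUSG00000018906, chromosome 11 from 54100095 to 54131665) had 21.9, 20.4 and 20.3 FPKM in the control libraries and 0.981, 1.05 and 0.692 FPKM in the cisplatin libraries. Its log2 fold change of -4.40 (SE 0.14 on that scale, adjusted p = 1.01e-06, limma) was the largest fall of the 10 genes and the 27th of all tested genes. P4ha1 (ENSMUSG00000019916, chromosome 10 from 59323296 to 59373304) had 44.9, 43.4 and 46.3 FPKM in control and 12.7, 12.9 and 11.2 FPKM with cisplatin, a log2 fold change of -1.86 (SE 0.06 on that scale, adjusted p = 1.06e-06, limma). P4ha2 was 0.439 to 0.489 times P4ha1 in each control library and 0.0617 to 0.0812 times in each cisplatin library. The 11 genes of the collagen hydroxylase family all had lower values with cisplatin and passed an adjusted p-value of 0.05 (limma). In that direction 29.0% of all tested genes passed. With the minimum fold as well, 9 of the 11 were called lower, where 12.8% of all tested genes were. The shared beta subunit P4hb fell from 356 to 125 FPKM, and the lysyl hydroxylase Plod2, another HIF target, fell from 31.4 to 2.60 FPKM (log2 fold change -3.54).

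Car9 (ENSMUSG00000028463, chromosome 4 from 43506966 to 43513729), a carbonic anhydrase of the cell surface that is among the best known markers of hypoxic tumours, was the exception. It had 0.795, 0.984 and 1.03 FPKM in the control libraries (55 to 73 rebuilt reads) and 0.925, 0.406 and 0.522 FPKM in the cisplatin libraries (31 to 69 reads). Cisplatin replicate 1 lay within the control values. The log2 fold change of -0.59 did not pass the test (95% confidence interval -1.35 to 0.17, adjusted p = 0.157, limma), and the interval leaves room for a fall of more than 2-fold. Single libraries moved this value: it was -0.88 without cisplatin replicate 1 (adjusted p = 0.04, limma), still under the minimum fold, and -0.37 without cisplatin replicate 2 (adjusted p = 0.366, limma). Of the 15 carbonic anhydrases, 6 were tested. Car12, a second HIF-induced enzyme of the cell surface, fell from 7.24 to 1.46 FPKM (log2 fold change -2.25) and Car5b was also called lower, while the cytosolic Car2 was called higher, from 1.87 to 4.17 FPKM. The antisense transcript Gm12454 overlaps Car9 and averaged 2.05 FPKM in control and 0.794 FPKM with cisplatin. Use of strand in the counting is not given in the sources used here, so reads of Car9 and of this transcript may not have been told apart.

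Ankrd37 (ENSMUSG00000050914, chromosome 8 from 45996902 to 46005707), a small ankyrin-repeat gene induced by HIF, had 12.4, 13.2 and 13.7 FPKM in control and 2.17, 3.14 and 3.05 FPKM with cisplatin. The groups were apart, with a log2 fold change of -2.21 (SE 0.14 on that scale, adjusted p = 2.03e-05, limma). It overlaps Ufsp2 and Lrp2bp on the other strand. Ufsp2 averaged 7.75 FPKM in control and 5.06 FPKM with cisplatin, and Lrp2bp 0.763 and 0.124 FPKM, so reads from those genes could enter its value.

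In the control libraries the order per length was Egln3, Egln1, Vegfa, Ndrg1, P4ha1, Bnip3, P4ha2, Ankrd37, Adm and Car9, and no neighbours overlapped in their library values. In the cisplatin libraries Egln1 stood first at 29.2 ± 0.725 FPKM (SD, n = 3), Egln3 (12.6 ± 1.17) and P4ha1 (12.3 ± 0.932) overlapped, and Vegfa followed at 10.1 ± 0.461. Ndrg1 came next at 3.94 ± 0.251 FPKM (SD, n = 3), Bnip3 (2.92 ± 0.446) and Ankrd37 (2.78 ± 0.535) overlapped, and P4ha2, Adm and Car9 all lay between 0.406 and 1.05 FPKM in every library. The spread between libraries grew at low levels, from 1.03% of the mean for Egln3 in control to 44.1% for Car9 with cisplatin.

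The falls were then set against those of the ID8 transcripts by centring each library on the mean of the tested ID8 genes, a scaling that assumes that these genes did not change. It raised the median log2 fold change of all tested genes from 0.03 to 2.29. On this scale 5 of the 10 genes were still called lower, where 0.895% of all tested genes were, and 2 were called higher, where 87.2% were. The 5 were P4ha2 (log2 fold change -2.13), Ndrg1 (-2.06), Egln3 (-1.48), Bnip3 (-1.19) and Vegfa (-1.04), so these fell by more than the mean of the ID8 genes. Falls of more than 2-fold also occurred within the ID8 list, though none was as large as those of P4ha2 and Ndrg1. Of the 26 tested ID8 genes, 2 were called lower on this scale (Ctgf -1.93 and Krt19 -1.35) and 3 higher. Ankrd37 moved with that mean (0.05, adjusted p = 0.749, limma). Egln1 and P4ha1 fell slightly less than it (0.38 and 0.40 on this scale, adjusted p = 1.26e-04 and 3.51e-04, limma), and Adm and Car9 were called higher (1.21 and 1.67). Centring on the T-cell identity genes moved the median of all tested genes to -0.55. There 3758 of the 15874 tested genes were called lower, and so were all 10 genes, Car9 included (log2 fold change -1.17, adjusted p = 0.0142, limma).

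**Figure D2:**
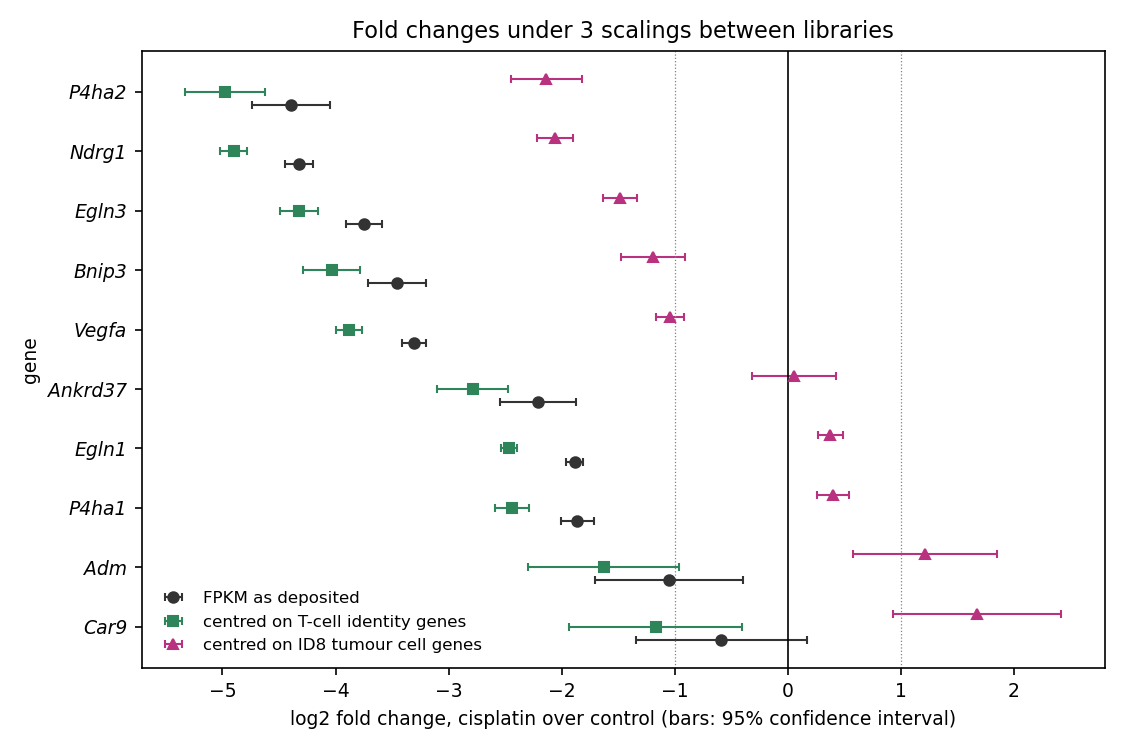
Log2 fold change of each of the 10 genes, cisplatin over control, on the FPKM as deposited (black), after centring each library on the T-cell identity genes (green) and after centring on the ID8 tumour cell genes (pink), with 95% confidence intervals and dotted lines at a 2-fold change. The estimates of P4ha2, Ndrg1, Egln3, Bnip3 and Vegfa lie below a 2-fold fall under all 3 scalings, whereas Car9 goes from -1.17 to 1.67. After centring on the ID8 genes, the intervals of Bnip3 (-1.48 to -0.91) and Vegfa (-1.17 to -0.92) cross the 2-fold line.

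Other HIF targets outside glycolysis, from a list of 30 genes, moved in the same direction. Of the 28 tested, 23 were called lower and 0 higher, where 12.8% and 4.11% of all tested genes were. The median log2 fold change of the 28 was -1.89, against 0.03 for all tested genes. The collagen crosslinking enzymes Lox and Loxl2 had log2 fold changes of -5.02 and -3.88. Fam162a and Ero1l, the latter an oxidase of protein folding, had log2 fold changes of -3.001 and -3.03. Falls nearer to 2-fold were those of Ddit4, an inhibitor of mTOR (183 to 83.6 FPKM), of the transcription factor Bhlhe40 (91.1 to 43.4 FPKM) and of the HIF antagonist Cited2 (62.4 to 28.0 FPKM). Cxcr4, a chemokine receptor abundant on lymphocytes, had 16.2 FPKM in control and 17.2 FPKM with cisplatin and did not pass the test (adjusted p = 0.196, limma). After centring on the ID8 genes, 5 of the 28 were called lower and 10 higher, where 0.895% and 87.2% of all tested genes were. For comparison, 16 of 18 glycolytic HIF targets were called lower as deposited (median log2 fold change -2.08), and after that centring 0 were called lower and 4 higher.

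On the FPKM as deposited, the genes that sense oxygen and build HIF itself, Egln1 and Egln3 left out, had a median log2 fold change of -0.16. Their difference from the targets was not tested. The 2 lists of hydroxylases, degradation factors, subunits and coactivators held 16 such genes, of which 15 were tested and 1 was called. This was Hif3a, an alpha subunit related to inhibitors of HIF, with 1.297 FPKM in control and 0.541 FPKM with cisplatin (log2 fold change -1.14). At an adjusted p-value under 0.05 alone (limma), 8 of the 15 were lower and 3 higher, where 29.0% and 27.5% of all tested genes were. These values depended on the scaling. After centring on the T-cell genes, all 15 had negative log2 fold changes, from -1.72 (Hif3a) to -0.16 (Crebbp). The median of all tested genes was then -0.55. After centring on the ID8 genes, all 15 were called higher, where 87.2% of all tested genes were. Hif1a, an oxygen-regulated alpha subunit, had 49.2 ± 0.825 FPKM (SD, n = 3) in control and 65.3 ± 2.90 FPKM (SD, n = 3) with cisplatin, a log2 fold change of 0.41 (adjusted p = 1.52e-04, limma) that was -0.17 after centring on the T-cell genes and 2.67 after centring on the ID8 genes. Epas1, which encodes HIF-2 alpha, was at 2.03 and 1.49 FPKM, and Arnt at 12.9 and 10.3 FPKM. Vhl had 17.4 FPKM in control and 11.7 FPKM with cisplatin (log2 fold change -0.57).

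**Figure D3:**
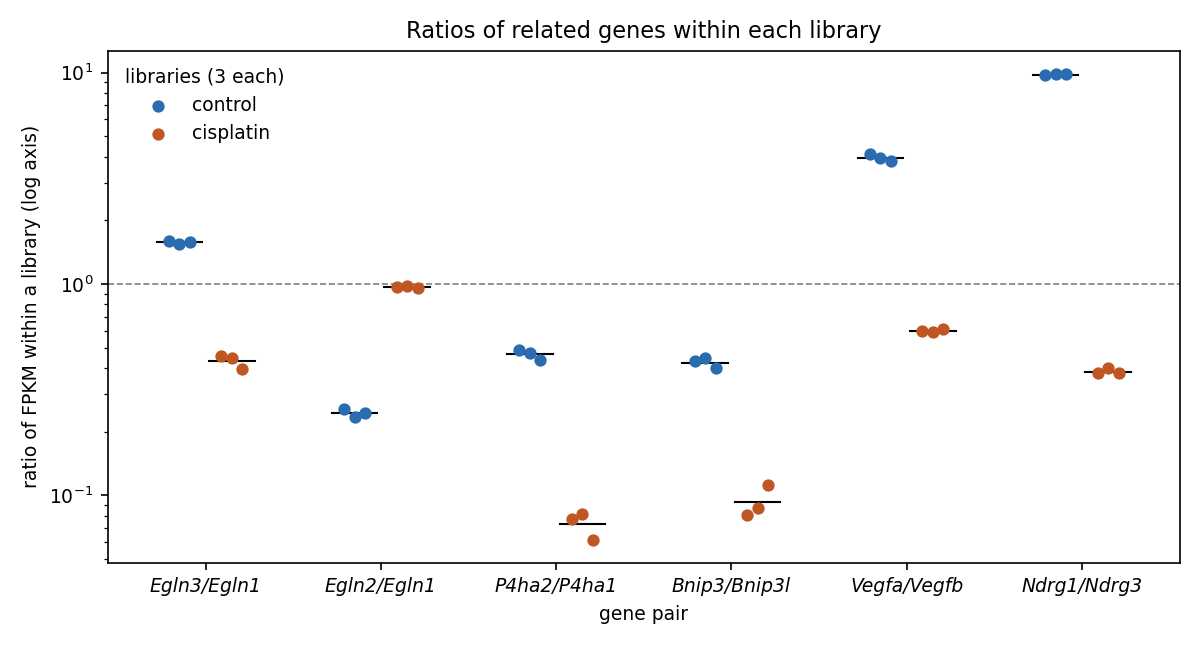
Ratio of FPKM of 6 pairs of related genes within each library (log axis), for the 3 control (blue) and 3 cisplatin (orange) libraries, with the mean as a line and a dashed line at equal levels. Egln3 to Egln1, Vegfa to Vegfb and Ndrg1 to Ndrg3 pass from above to below equality.

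The profile over the 6 libraries was also compared between the mean of the 10 genes and 8414 other tested genes averaging 5 FPKM or more, by the Euclidean distance between centred log2(FPKM + 0.1) values. The 5 nearest genes were Krt18 (distance 0.09), Wwc1 (0.12), Myo1d (0.14), Cxadr (0.14) and Tpi1 (0.15). Krt18 is a keratin of simple epithelia and a member of the ID8 list, and Tpi1 is a glycolytic enzyme. Of the 10 genes themselves, Ankrd37 (0.73) and Vegfa (0.77) were nearest to their mean and Car9 (2.69) was farthest. Over 6 libraries in 2 groups this distance reflects mainly the size of the change, and it is given as a description.

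**Figure D4:**
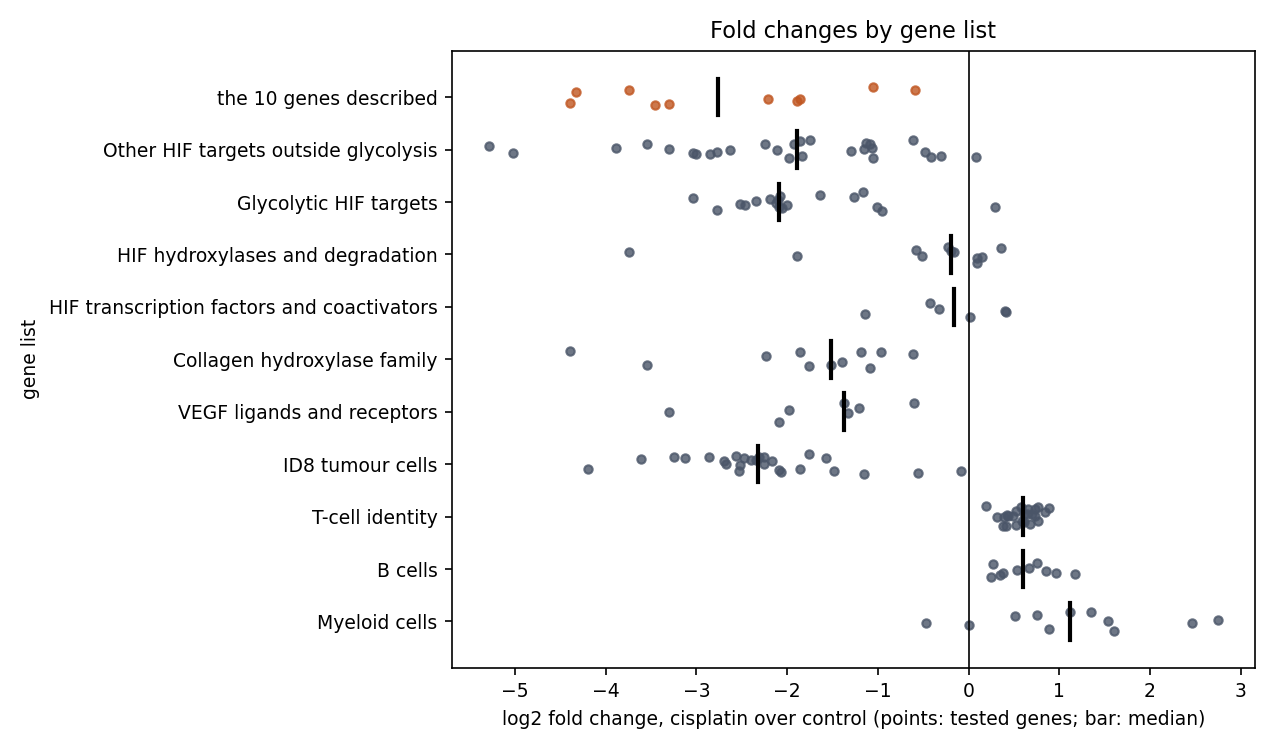
Log2 fold changes (cisplatin over control, FPKM as deposited) of the tested genes of each list, as points with the median as a bar. The medians are -2.76 for the 10 genes described, -1.89 for the other HIF targets, -2.08 for the glycolytic targets, -2.32 for the ID8 genes and 0.60 for the T-cell genes.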

How the data were processed

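Poly-A RNA was sequenced in 3 cisplatin and 3 control libraries, grouped by their labels. The authors deposited gene FPKM values. The submitters' processing notes name fastp, HISAT2 2.0.5, featureCounts 1.5.0-p3 and mm10, whereas the methods name LifeScope, and strand use in counting is not given in the sources used here. FPKM times gene length gave whole reads (tolerance 0.1), from 30606569 to 32169496 per library. Genes averaging 0.5 FPKM or more were tested on log2(FPKM + 0.1) with limma 3.58.1 (R 4.3.3, trend in the variance prior, Benjamini-Hochberg), and called when the adjusted p was under 0.05 and the fold change reached 2. The scripts were tested on simulated data. The members, lists and tests were chosen with earlier results of these data known. All 10 members, the pathway and family genes with a stated value and the 5 nearest profiles are named. Gene ratios used exact permutation tests (two-sided). Alternatives covered pseudocounts, filters, scalings, voom on the rebuilt reads, a replicate block and leaving out each library.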

Additional observations from a re-analysis of the deposited data

How the results depend on the processing

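Over 19 alternatives, 177 of 188 log2 fold changes of the 10 genes kept their direction and side of the threshold. Of the others, 5 lost the call (all of Adm), 1 gained it (Car9, centred on the T-cell genes) and 5 reversed, all on centring on the ID8 genes: Adm 1.21, Ankrd37 0.053, Car9 1.67, Egln1 0.38 and P4ha1 0.40. That centring also gave 5 of the 10 genes called lower and 2 higher, 5 other HIF targets called lower, 15 HIF factors and hydroxylases called in place of 1, and 142 genes called lower and 13845 higher in all, since it moves every gene by the same amount per library. Centring on the T-cell genes gave 3758 lower, 140 higher and 4 HIF factors called. Of all genes, 2034 were called lower and 653 higher as reported. With a minimum of 5 FPKM, which leaves Adm and Car9 untested, these were 903 and 242. Calls of higher genes were 311 with a pseudocount of 1, 1127 by voom and 255 among protein-coding genes alone, and the cause was not tested. The single HIF factor called (Hif3a) gave 0 calls with a pseudocount of 1, a minimum of 5 FPKM, quantile normalization or limma's treat. Leaving out each library gave 8 to 9 of the 10 genes lower and 0 higher, 22 to 23 other targets lower, 1 HIF factor, and 1907 to 2083 lower and 570 to 693 higher genes in all. A replicate block gave 9, 0, 23, 1, 2011 and 651 for the same counts, but libraries with the same number shared only a number (correlations of their deviations 0.023, -0.063 and -0.021). Few reads limit Adm and Car9 (at most 94 and 73 per library).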
